A study of Mus musculus with 6 samples.

Results

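The genes examined here are 10 neighbours on mouse chromosome 4 around Alad, out of 54429 genes in the count tables. In chromosomal order they are Fkbp15, Slc31a1, Cdc26, Prpf4, Rnf183, Wdr31, Bspry, Hdhd3, Alad and Pole3. Alad, Hdhd3 and Bspry were chosen by their expression in these same libraries, in which they were higher in the Tau mice and lower after UNC0642, so their changes are given as a description with no test. The other 7, called flanking members here, are neighbours by position, named with earlier results of these data known. They are not a symmetric set. All but Pole3 lie on the side of Bspry, and Rgs3, which starts nearer to Alad than Wdr31 does, is not among them.

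The data are RNA sequencing of prefrontal cortex (PFC) from mice 6 months old, with 2 libraries from each of 3 groups. WT mice (C57BL/6 x C3H) and P301S Tau mice (PS19) received vehicle, saline containing DMSO, and a further group of P301S Tau mice received UNC0642, an inhibitor of the histone methyltransferases EHMT1 and EHMT2, which place the repressive H3K9me2 mark. The inhibitor was injected intraperitoneally on 3 days running, at 1 mg/kg each time. P301S Tau mice carry a transgene for mutant human tau, the 1N4R isoform, under the mouse Prnp promoter; the study's mice were on a B6C3H/F1 background, a cross of the C57BL/6 and C3H strains, were WT and transgenic littermates and were of both sexes. UNC0642 was not given to WT mice in these libraries, and whole tissue was lysed, so fewer cells of a type and less RNA per cell cannot be told apart.

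Alad encodes delta-aminolevulinate dehydratase, the enzyme of heme synthesis that condenses aminolevulinic acid into porphobilinogen and is known for its inhibition by lead. In the mouse it lies at the Lv locus, at which inbred strains are known to differ in the activity of the enzyme and in the number of copies of the gene. Hdhd3, its neighbour, encodes a protein of the haloacid dehalogenase-like hydrolase family, and Bspry a protein with B-box and SPRY domains. The flanking genes serve other processes. Slc31a1 encodes the copper importer CTR1, Cdc26 a subunit of the anaphase-promoting complex, Prpf4 a protein of the U4/U6 spliceosomal particle, Pole3 a histone-fold subunit shared by DNA polymerase epsilon and the CHRAC chromatin remodeller, Fkbp15 a protein related to FK506-binding proteins, Rnf183 a RING-finger ubiquitin ligase and Wdr31 a WD-repeat protein. The number of gene copies was not measured in these data.

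In the GRCm38 annotation (GENCODE M21), the 10 genes spanned 225 kb. Bspry (ENSMUSG00000028392) lay at chr4:62480053-62497298 on the plus strand, Hdhd3 (ENSMUSG00000038422) at chr4:62499008-62503467 on the minus strand and Alad (ENSMUSG00000028393) at chr4:62509169-62519918 on the minus strand. These 3 genes occupied 39.9 kb with no other member between them. Bspry ended 1709 bases before Hdhd3, and Hdhd3 5701 bases before Alad. On the outer sides, Wdr31 lay 9156 bases from Bspry and Pole3 2730 bases from Alad.

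The 250 bases before the annotated start of each of the 3 genes in the RefSeq table are shown because the genes lie side by side and both Tau libraries had the highest level of each. They were taken from the RefSeq promoters of GRCm38.p6 and are written 5′ to 3′ on the strand of the gene: chr4:62479812-62480061 for Bspry, chr4:62502201-62502450 for Hdhd3 and chr4:62520064-62520313 for the first of the starts listed for Alad. The annotations differ: the window of Hdhd3 lies inside the longer GENCODE model of that gene given above, so it precedes the RefSeq start and not the GENCODE one. Capitals mark matches on either strand to the motifs searched. These were the CCAAT box, spelled as its name, the TATA box with the letters TATAAA, the GC box with GGGCGG, the E-box of the form CACGTG and a GATA site with AGATAA.
Bspry: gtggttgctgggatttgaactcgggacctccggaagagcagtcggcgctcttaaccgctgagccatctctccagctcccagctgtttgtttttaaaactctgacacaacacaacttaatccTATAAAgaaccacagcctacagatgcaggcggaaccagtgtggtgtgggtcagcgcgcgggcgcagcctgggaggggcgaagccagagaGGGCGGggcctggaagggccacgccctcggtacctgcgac
Hdhd3: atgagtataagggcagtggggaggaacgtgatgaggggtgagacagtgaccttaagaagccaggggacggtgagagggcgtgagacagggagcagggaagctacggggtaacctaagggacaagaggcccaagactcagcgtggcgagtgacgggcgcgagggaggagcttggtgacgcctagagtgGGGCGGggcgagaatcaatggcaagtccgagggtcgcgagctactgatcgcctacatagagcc
Alad: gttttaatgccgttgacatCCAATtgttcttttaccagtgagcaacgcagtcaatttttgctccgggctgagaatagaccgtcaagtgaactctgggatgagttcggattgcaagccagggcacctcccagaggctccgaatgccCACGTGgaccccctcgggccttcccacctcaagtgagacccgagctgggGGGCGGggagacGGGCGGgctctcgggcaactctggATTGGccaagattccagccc
The GC box was the one searched motif found in front of all 3 genes, with 1 match each for Bspry and Hdhd3 and 2 for Alad, and 32.9% of 27025 mouse promoters of this length held it. Bspry alone of the 3 had a TATA box (13.0% of promoters), and Alad alone had CCAAT boxes, 2 of them (34.5%), and an E-box (6.05%). No GATA site was in these windows (10.3% of promoters). The windows held 15, 16 and 13 CpG dinucleotides for Bspry, Hdhd3 and Alad, against a median of 6 over all promoters, and their GC content was 59.6%, 60.8% and 58.4% against 52.0%. The window of the other start listed for Alad, chr4:62519910-62520159, overlaps the one shown and held 6 GC boxes, 1 CCAAT box, 1 E-box and 25 CpG dinucleotides at a GC content of 70.4%.

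The libraries held 17005664 to 28972176 counts, and 20409 genes passed a filter on low counts, 9 of the 10 members among them. Levels are given as normalized expression in CPM, counts scaled to the TMM-adjusted library size, on which 3 counts are 0.107 to 0.178 CPM. Neuron markers summed to between 5317 and 6269 CPM and forebrain markers to between 136 and 200 CPM, so markers of the labelled tissue were present in every library. Prnp, whose promoter drives the transgene, stood at 1652 CPM in the library labelled WT replicate 1, at 873 CPM in WT replicate 2 and at 1470 to 1694 CPM in the 4 libraries from P301S Tau mice; Mapt stood at 576 and 449 CPM against 571 to 614 CPM. The library labelled WT replicate 1 thus went against its label in Prnp and Mapt. The values of Alad, Hdhd3 and Bspry against WT mice are therefore also given without it. So are calls of members and neighbouring genes that end or begin without it, and calls of partner genes that end. Calls of cell type markers, Alas2 apart, are given only with that library included. By Xist and the Y-linked gene Ddx3y, WT replicate 2 and both Tau libraries were female and the other 3 male, so untreated and UNC0642-treated Tau mice also differed in sex, and treatment and sex cannot be told apart.

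Alad was the most abundant of the 3 genes. In the libraries labelled WT replicates 1 and 2 its level was 31.5 and 28.5 CPM, against 43.3 and 46.9 CPM in Tau replicates 1 and 2 and 30.0 and 30.3 CPM in the UNC0642-treated replicates. Both untreated Tau libraries were above the other 4, and the UNC0642-treated libraries lay between the WT libraries. The group means were 30.0 ± 2.1, 45.1 ± 2.5 and 30.2 ± 0.28 CPM (SD, n = 2) for WT, Tau and UNC0642-treated Tau mice. Alad was 1.502-fold higher in Tau than in WT mice, a log2 fold change of 0.59 (SE 0.10), and after UNC0642 its log2 fold change against untreated Tau mice was -0.58 (SE 0.10).

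Hdhd3 stood at 8.83 and 10.04 CPM in WT, 14.4 and 12.1 CPM in Tau and 7.76 and 8.43 CPM in UNC0642-treated replicates 1 and 2. The Tau libraries were again the highest, and both treated libraries were below both WT libraries. The log2 fold change was 0.49 (SE 0.16) in Tau against WT mice, -0.71 (SE 0.16) in treated against untreated Tau mice and -0.22 (SE 0.16) in treated Tau against WT mice.

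Bspry had the fewest counts of the 3, between 46 and 192 a library, and the largest log2 fold changes. Its level was 2.76 and 3.40 CPM in WT, 6.86 and 6.41 CPM in Tau and 2.72 and 3.13 CPM in the UNC0642-treated replicates. Both Tau libraries were well above the other 4, which overlapped among themselves. Bspry was 2.16-fold higher in Tau than in WT mice, a log2 fold change of 1.11 (SE 0.23), and its log2 fold change after UNC0642 was -1.18 (SE 0.24). Per kilobase of exon, Alad was also far above Bspry, at 18.8 against 1.79 RPKM on average over the 6 libraries, with Hdhd3 at 7.50 RPKM between them.

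**Figure D1:**
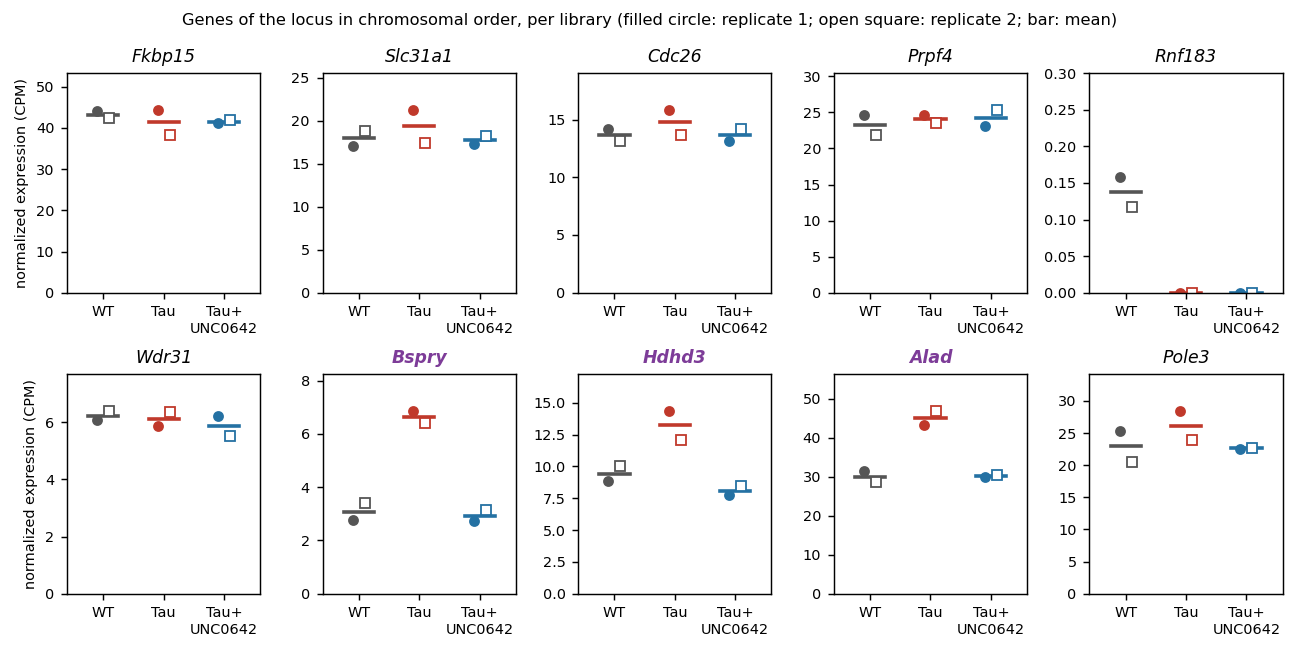
Normalized expression (CPM, linear axis from 0) of the 10 members in chromosomal order, by group. Points are libraries (n = 2 a group) and bars their means; in Bspry, Hdhd3 and Alad both Tau libraries lie above the other 4, and in none of the flanking members do they; Rnf183 had 4 and 3 counts in the WT libraries and 0 in the others.

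Within a group the 3 genes did not always move alike. Hdhd3 was higher in replicate 2 than in replicate 1 by 0.18 on the log2 scale in WT and by 0.12 in UNC0642-treated mice, and lower in Tau mice, at -0.25. Bspry had the same signs, at 0.29, 0.20 and -0.10. Alad had the opposite sign in WT (-0.14) and Tau mice (0.11) and a value of 0.02 in treated mice. The ratios between the genes are also free of scaling between libraries. There were 11.4 and 8.39 Alad counts for each Bspry count in the WT libraries, 6.31 and 7.31 in the Tau libraries and 11.0 and 9.69 in the treated libraries, so that both Tau libraries had the lowest ratios. Hdhd3 counts for each Bspry count were 3.2 and 2.95 in the WT, 2.09 and 1.88 in the Tau and 2.85 and 2.69 in the treated libraries. The Tau libraries were again the lowest. Alad counts for each Hdhd3 count ranged from 2.84 to 3.88 with overlapping groups. Across the 6 libraries, log2 levels of Alad correlated with those of Bspry at r = 0.934 and with those of Hdhd3 at r = 0.834, and Hdhd3 with Bspry at r = 0.952; these values describe points that share the groups and the choice of the genes.

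A gene was called when its level differed 1.2-fold or more with an unadjusted p-value under 0.05. The choice of Alad, Hdhd3 and Bspry fixed that all 3 met this rule, up in Tau against WT mice and down after UNC0642; over all genes tested 3.72% were called up in Tau mice, 3.95% were called down after UNC0642 and 0.857% were both. Both Tau libraries were above the other 4 in these 3 genes and in none of the 7 flanking members, and in 8.37% of all genes tested. With the Benjamini-Hochberg adjustment over all genes, no member was below 0.05, and 32, 4 and 44 genes were in Tau against WT, treated against untreated Tau and treated Tau against WT mice. These comparisons share libraries and are not independent of each other.

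None of the 6 flanking members that passed the filter on low counts was called in Tau against WT mice, where 9.81% of all genes were called in either direction, or after UNC0642, where 7.69% were. Their log2 fold changes ran from -0.06 to 0.20 (SE 0.10 to 0.19) in Tau against WT mice, with adjusted p-values of 0.583 to 0.959, and from -0.21 to 0.01 (SE 0.10 to 0.19) after UNC0642, with adjusted p-values of 0.684 to 0.993. The median log2 fold change over these 6 was 0.08 and -0.09, over Alad, Hdhd3 and Bspry 0.59 and -0.71, and over all genes tested -0.0001 and -0.0023. In UNC0642-treated Tau against WT mice no member was called, against 9.47% of all genes, and the log2 fold changes of Alad and Bspry were 0.01 (SE 0.10) and -0.07 (SE 0.24). Of the genes called in Tau against WT mice, 37.9% were higher, and 19.2% when libraries were scaled by size alone, a scaling that shifted the median of all genes to -0.07.

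Pole3, the flanking gene nearest to Alad, stood at 25.3 and 20.5 CPM in WT, 28.5 and 23.9 CPM in Tau and 22.6 and 22.7 CPM in treated mice. Tau replicate 2 was below the library labelled WT replicate 1, so WT and Tau mice overlapped, and both treated libraries were below both Tau libraries. Its log2 fold change was 0.20 (SE 0.13, adjusted p = 0.583) in Tau against WT mice and -0.21 (SE 0.14, adjusted p = 0.684) after UNC0642.

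Wdr31, on the other side of Bspry, overlapped between all groups. It stood at 6.07 and 6.41 CPM in WT, 5.86 and 6.36 CPM in Tau and 6.22 and 5.51 CPM in treated mice, with a log2 fold change of -0.03 (SE 0.19, adjusted p = 0.959) in Tau against WT mice. Per kilobase of exon it averaged 1.28 RPKM, near the level of Bspry.

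Farther out, Slc31a1 ranged from 17.1 to 21.3 CPM over the 6 libraries, Cdc26 from 13.1 to 15.8 CPM, Prpf4 from 21.9 to 25.4 CPM and Fkbp15 from 38.3 to 44.4 CPM. In each of the 6 flanking members the highest library was at most 1.39-fold above the lowest, as against 1.65-fold for Alad, 1.85-fold for Hdhd3 and 2.52-fold for Bspry. The choice of Alad, Hdhd3 and Bspry favoured their wider ranges. Rnf183 had 4 and 3 counts in the libraries labelled WT and 0 in the other 4 libraries, too few for a comparison. The annotated spans of Slc31a1 and Cdc26, introns included, overlap by 8116 bases on opposite strands. The overlap of their exons was not measured. As the strand setting of the counting is not given in the sources used here, reads from any overlapping exons may be shared. Cdc26 also shares a stretch of 255 bases at 98.8% identity with the gene Gm9174, which had 6 to 15 counts a library, one of 191 bases at 95.8% with Ggnbp1, which had 36 to 77, and one of 171 bases at 95.3% with Gm44986, which had 17 to 38. Against 222 to 443 counts of Cdc26 itself, its level is uncertain; no such copy was found for the other members.

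Leaving out the library labelled WT replicate 1, the log2 fold changes in Tau against WT mice were 0.66 for Alad, 0.40 for Hdhd3 and 0.96 for Bspry. Hdhd3 was then no longer called, and Pole3 was called, at 0.35. WT replicate 2 and both Tau libraries all had the female pattern, so these fold changes are between female libraries. In treated Tau against WT mice the log2 fold changes without that library were 0.08 for Alad, -0.31 for Hdhd3 and -0.21 for Bspry, and no member was called. Hdhd3 also lost its call in Tau against WT mice without Tau replicate 1, at 0.36. Among male libraries, the library labelled WT replicate 1 and the treated libraries had similar levels of Alad, at 31.5 CPM against 30.0 and 30.3 CPM. A term for sex in the model was set by the WT libraries alone, as only they held both sexes within a group. It thus rested on the library labelled WT replicate 1 and could not separate sex from treatment. With this term, Alad remained called in both comparisons, and Hdhd3 was not called in Tau against WT mice (0.40). Neither Hdhd3 (-0.53) nor Bspry (-0.88) was called after UNC0642. Pole3 was called up in Tau mice (0.35) and down after UNC0642 (-0.51). Alad, Hdhd3 and Bspry were chosen for meeting the rule in these libraries, so the calls they kept are a description and not a test.

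Comparing the genes within a library removes the scaling between libraries. Alad, Hdhd3 and Bspry together held 24.7% and 25.4% of the counts of the 10 members in the 2 libraries labelled WT, 31.5% and 34.7% in Tau replicates 1 and 2, and 24.7% in each treated library. The Tau libraries stood apart from the rest, and the treated libraries matched the library labelled WT replicate 1. The mean log2 CPM of the 3 genes minus that of the 6 flanking members was -0.91 ± 0.13 in WT, -0.25 ± 0.05 in Tau and -0.99 ± 0.06 in treated mice (SD, n = 2).

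**Figure D2:**
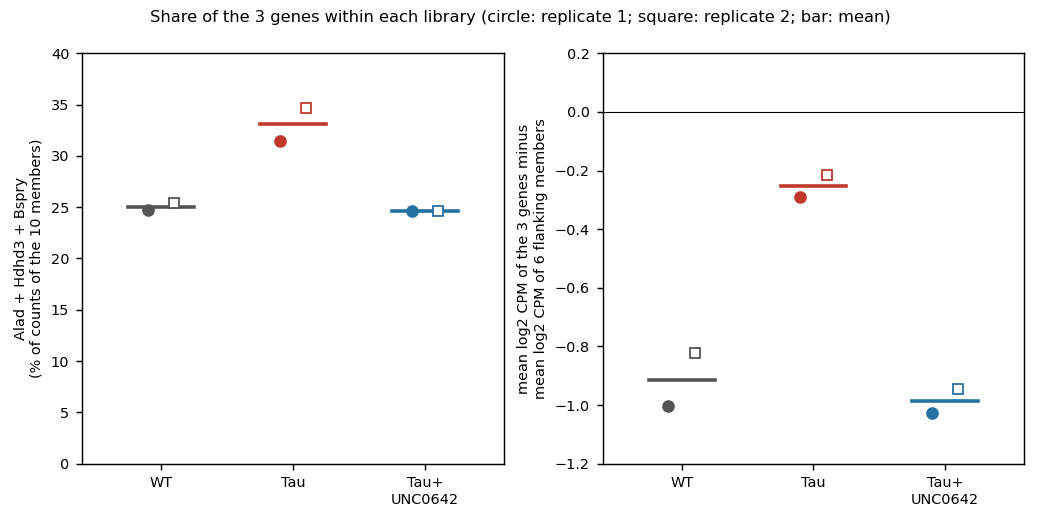
Left, share of the counts of the 10 members that fell on Alad, Hdhd3 and Bspry (percent); right, mean log2 CPM of these 3 genes minus that of the 6 flanking members with enough counts. Points are libraries and bars group means (n = 2). The Tau libraries, at 31.5% and 34.7%, lie above the WT and treated libraries, at 24.7% to 25.4%, which the choice of the 3 genes favoured.

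Along the chromosome, 56 genes were annotated within 1 Mb of Alad, and 16 of them were tested. Alad, Hdhd3 and Bspry were the genes called in Tau against WT or treated against untreated Tau mice, and none of the other 13 was, against 9.81% and 7.69% of all genes; at those shares 13 genes hold few or no calls, and the 3 called genes were selected for being called. Without the library labelled WT replicate 1, Zfp37 was called up in Tau mice, at 0.29 (SE 0.11), as was Pole3. The log2 fold changes of these 13 ran from -0.57 to 0.32 in Tau against WT mice and from -0.73 to 0.32 after UNC0642. The widest of them came from genes of low level, such as Zfp618, with 1.72 to 6.15 CPM and SEs of 0.41 and 0.42. Slc31a2, a copper transporter related to Slc31a1, had a log2 fold change of 0.32 (SE 0.17, adjusted p = 0.458) in Tau against WT mice. Rgs3, a regulator of G-protein signalling and the nearest tested gene beyond Pole3, had one of -0.11 (SE 0.25, adjusted p = 0.886). In treated Tau against WT mice, Akna (-0.87, SE 0.36, adjusted p = 0.374) and Whrn (-0.50, SE 0.17, adjusted p = 0.292) were called down, 858 and 906 kb from Alad, and neither was called without the library labelled WT replicate 1, at -0.64 and -0.33.

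**Figure D3:**
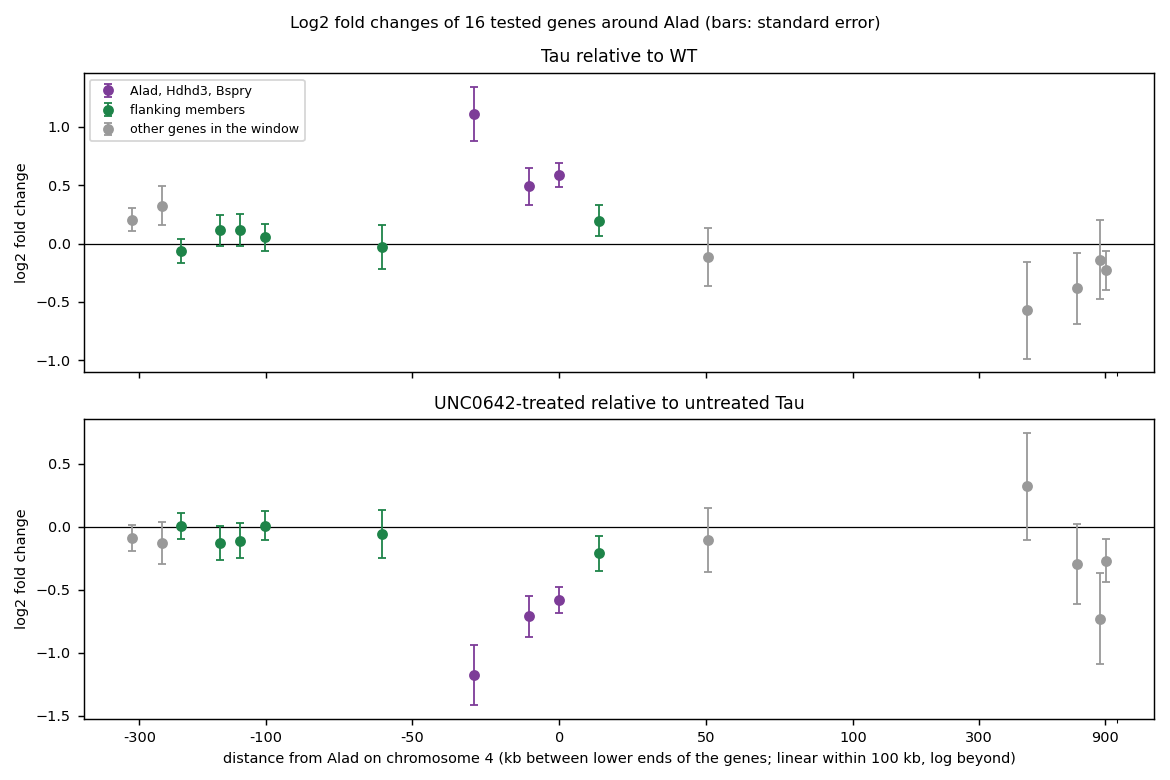
Log2 fold changes (points) and standard errors (bars) of the 16 tested genes within 1 Mb of Alad against their distance from Alad in kb, linear within 100 kb and logarithmic beyond. Bspry, Hdhd3 and Alad lie at 0.49 to 1.11 in Tau against WT mice and at -1.18 to -0.58 after UNC0642, and the flanking members next to them, Wdr31 and Pole3, at -0.03 and 0.20 and at -0.06 and -0.21.

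Genes that work with the members were compared by lists. Over all genes tested, 9.81% were called in Tau against WT mice and 7.69% after UNC0642. At those shares, lists as short as these and the ones below hold few or no calls. Of the 8 other enzymes of heme synthesis, none was called up in Tau mice and 1, Alas2, was called down, with a log2 fold change of -0.59 (SE 0.25, adjusted p = 0.383); without the library labelled WT replicate 1 it was not called, at -0.42. Alas2 is the erythroid form of the first enzyme of the pathway. It also belongs to the list of blood markers, of which 2 of 5 were called down, Alas2 itself and Hbb-bs. Alas1, the form of the same enzyme used outside the erythroid lineage, had a log2 fold change of 0.02 (SE 0.09). Cpox, coproporphyrinogen oxidase, had one of 0.25 (SE 0.11, adjusted p = 0.392), under the fold change for a call, and was called down after UNC0642 at -0.27 (SE 0.11, adjusted p = 0.513). The list's medians were -0.06 and -0.03, and no gene of it was called both up in Tau mice and down after UNC0642.

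Of 13 genes of heme transport and breakdown none was called in either comparison, against 9.81% and 7.69% of all genes. The medians were 0.09 and -0.05. The most abundant gene of this list, Slc48a1, which carries heme out of lysosomes, had log2 fold changes of 0.13 and -0.09 (SE 0.09 each). None of the 9 tested genes of copper handling, Slc31a1 apart, was called in these comparisons, with medians of 0.07 and -0.13, the first of which was 0.19 without the library labelled WT replicate 1. Its most abundant gene, Atox1, a copper chaperone, had log2 fold changes of 0.18 and 0.06 (SE 0.12 each). None of 15 genes of the anaphase-promoting complex was called, with medians of 0.09 and 0.0026. Its most abundant gene, Anapc5, had log2 fold changes of -0.03 and 0.07 (SE 0.07 each). Cdc20, an activator of the complex named here after its values were seen, had one of 1.56 in Tau mice (SE 0.76, adjusted p = 0.434) at 0.93 CPM or less.

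Of 10 genes of the U4/U6.U5 particle, in which Prpf4 works, 1 was called in each comparison, against 9.81% and 7.69% of all genes. Txnl4a, a component of the U5 part of that particle, stood at 16.2 and 14.5 CPM in WT, 21.7 and 19.8 CPM in Tau and 15.8 and 16.01 CPM in treated mice. Both Tau libraries were above the other 4, and the log2 fold changes were 0.44 (SE 0.12, adjusted p = 0.258) and -0.39 (SE 0.13, adjusted p = 0.441). Of 6 genes of DNA polymerase epsilon and CHRAC, in which Pole3 works, Smarca5, the remodelling ATPase, was called up in Tau mice at 0.29 (SE 0.09, adjusted p = 0.298) and had a value of -0.04 after UNC0642. The medians of these lists were 0.14 and -0.04 for the U4/U6.U5 particle and 0.14 and 0.19 for the polymerase and CHRAC. Without the library labelled WT replicate 1, the median of the latter list in Tau against WT mice was 0.013, and Txnl4a (0.52) and Smarca5 (0.27) were called as before.

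**Figure D4:**
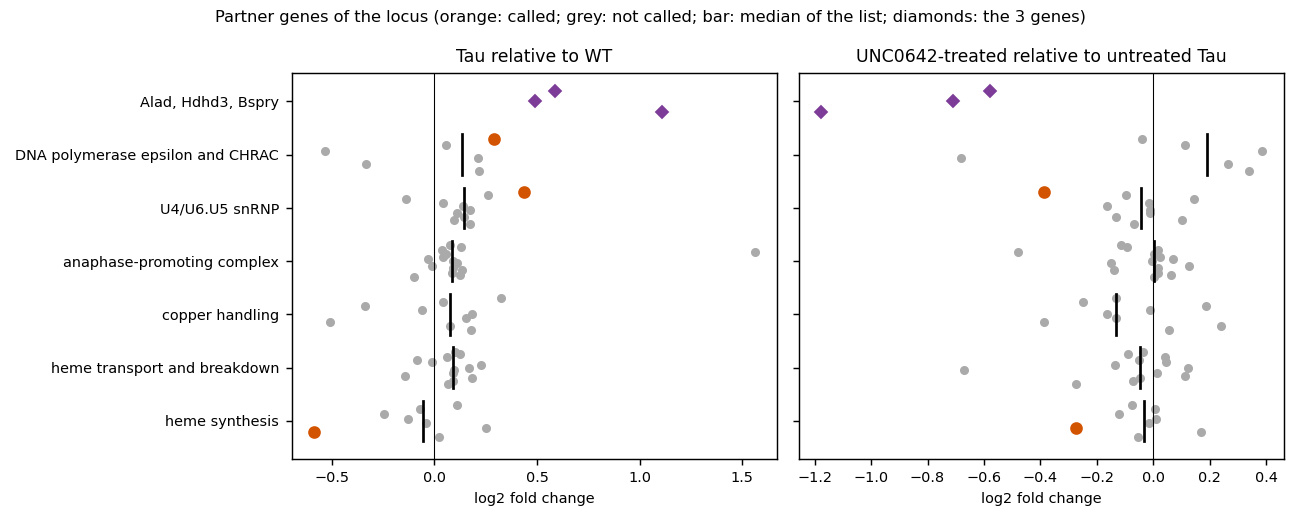
Log2 fold changes of the tested genes of each list of partner genes, with Alad, Hdhd3 and Bspry in the top row (diamonds). Orange points are called genes, grey points are not called, and black bars are list medians, which lie between -0.06 and 0.14 in Tau against WT mice and between -0.13 and 0.19 after UNC0642.

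Markers of several cell types moved with the groups, and their part in the levels of Alad, Hdhd3 and Bspry was not tested. Oligodendrocyte markers summed to 2648 and 1287 CPM in WT, 1830 and 4985 CPM in Tau and 1890 and 2020 CPM in treated mice, and 2 of 5 were called up in Tau mice and down after UNC0642. Tau replicate 1 had a lower sum than the library labelled WT replicate 1. Endothelial markers summed to 90.9 and 82.2 CPM in WT against 59.8 and 63.3 CPM in Tau and 66.8 and 81.6 CPM in treated mice. Of these, 2 of 3 were called down in Tau mice, among them Cldn5 at -1.10 (SE 0.17, adjusted p = 0.047). After UNC0642 Cldn5 was called up at 0.53 (SE 0.18, adjusted p = 0.458). Blood markers summed to 60.7 and 63.4 CPM in WT, 39.7 and 39.0 CPM in Tau and 41.3 and 66.2 CPM in treated mice. Of these 5, 2 were called down in Tau mice and 2 up after UNC0642. Astrocyte markers ranged from 850 to 915 CPM, with 1 of 4 called up in Tau mice. Microglial markers summed to 160.0 and 201.5 CPM in WT, 202.4 and 207.0 CPM in Tau and 180.3 and 179.8 CPM in treated mice. Of these 4, 1 was called up in Tau mice and 1, P2ry12, down after UNC0642 (-0.32, SE 0.14, adjusted p = 0.560). Choroid plexus and ependymal markers summed to 4.34 and 2.54 CPM in WT, 5.51 and 7.10 CPM in Tau and 3.61 and 5.16 CPM in treated mice. In both lists the Tau libraries had the highest sums. Meningeal markers ranged from 26.1 to 49.2 CPM. No choroid plexus, ependymal or meningeal marker was called in Tau against WT or treated against untreated Tau mice. Of 5 neuron markers and 3 forebrain markers none was called in Tau against WT mice; after UNC0642 the neuron marker Syt1 was called up at 0.55 (SE 0.13, adjusted p = 0.330) and the forebrain marker Tbr1 down at -0.40 (SE 0.12, adjusted p = 0.421), with a forebrain median of -0.30. The choroid plexus markers Ttr and Folr1 were at 0 in 4 and 1 of the 6 libraries and reached 1.37 and 0.414 CPM.

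The genes whose log2 levels over the 6 libraries were most like the mean of Alad, Hdhd3 and Bspry, by Pearson correlation and leaving out the members, were Pcx (r = 0.994), Ogdhl (0.994), 4933431E20Rik (0.988), Hist1h3d (0.987) and Trabd2b (0.983). Pcx encodes pyruvate carboxylase, which feeds the citric acid cycle, Ogdhl a protein related to a subunit of the oxoglutarate dehydrogenase complex, and Hist1h3d a histone H3. Pcx stood at 61.3 and 61.7 CPM in WT, 71.4 and 69.6 CPM in Tau and 58.9 and 61.2 CPM in treated mice, so that its range was narrower than that of the 3 genes. Of these 5 genes, Trabd2b also lies on chromosome 4, outside the window of 1 Mb, and its log2 fold changes were 0.49 and -0.47. The choice of Alad, Hdhd3 and Bspry favoured a mean that was high in both Tau libraries, so a high correlation mainly marks genes that share this group pattern. Both Tau libraries were above the other 4 in 8.37% of genes tested. Over all genes tested, 58 (0.284%) had a correlation above 0.95. Among them were Bspry (0.996) and Hdhd3 (0.96), which are themselves part of the mean. Alad, also part of it, was at 0.948 and ranked 69 among all genes tested. Of the flanking members Pole3 had the highest correlation, 0.612.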

How the data were processed

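Ribosomal RNA was removed from PFC RNA of 2 mice a group before stranded library construction. After trimming with Cutadapt, the authors aligned reads to RefSeq mRNAs by TopHat2 with default parameters, and deposited raw counts per gene from featureCounts; mm10 and SAMtools stand in the submitters' processing notes. Versions and the strand setting of the counting are not given in the sources used here. In 2 tables, 26 names read as dates and were joined by position. Replicate numbers name different mice.

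Counts were analysed with edgeR 4.0.16 (limma 3.58.1, R 4.3.3). filterByExpr (minimum count 10, minimum total 15) kept 20409 of 54429 genes. TMM factors ran from 0.966 to 1.04. The quasi-likelihood fit used all 6 libraries with 1 mean for each group, leaving 3 residual degrees of freedom and a common biological coefficient of variation of 12.3%. Calls required a 1.2-fold difference and an unadjusted p-value under 0.05, the thresholds of the study's methods, and adjusted p-values are Benjamini-Hochberg values over all genes tested. Standard errors were derived from the F statistic. Log2 levels used a prior count of 2, and RPKM the union of GENCODE M21 exons, joined by symbol (53669 symbols matched 1 gene). Motifs were searched on both strands. Near-identical transcripts were sought with blastn 2.17.0 (at least 95% identity over 100 bases). Calling was tested on simulated data. Python 3.11.15 (pandas 2.3.3, numpy 2.4.6, matplotlib 3.10.9) made tables and figures.

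The members and lists were chosen with earlier results of these data known. Genes named are the members, genes called within 1 Mb of Alad in Tau against WT or treated against untreated mice, the genes of each partner list called in these comparisons or, with none, its most abundant gene, the 5 genes most like the mean of Alad, Hdhd3 and Bspry, and Xist, Ddx3y, Prnp and Mapt. Other genes named (Zfp37, Zfp618, Slc31a2, Rgs3, Akna, Whrn, Alas1, Cdc20 and marker genes named singly) were chosen after their values were seen. Alternatives were DESeq2 1.42.0 size factors or library size for TMM, other filters, the DESeq2 Wald test, limma-voom, fits of the 2 compared groups, a replicate block, a term for sex-linked expression, adjusted p-values, a window of 500 kb, a prior count of 0.5 and fits without each library.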

Additional observations from a re-analysis of the deposited data

How the results depend on the processing

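Groups of 2 libraries limit every comparison, and the depth leaves Rnf183 unmeasured. Genes called in Tau against WT mice fell from 2003 to 1322 with the DESeq2 Wald test and to 32 with adjusted p-values; with adjusted p-values the other comparisons fell from 1569 to 4 (treated against untreated Tau) and from 1932 to 44 (treated Tau against WT), a stricter threshold by construction. The median log2 fold change of Alad, Hdhd3 and Bspry in Tau against WT mice was 0.59, and 0.66 with a term for sex-linked expression. Only the WT libraries set that term. That of the 6 tested flanking members was 0.08, and 0.012 with library size alone. Without each library in turn, the median of the 3 genes ranged from -0.83 to -0.64 after UNC0642 and from -0.21 to 0.0175 in treated Tau against WT mice, and that of the flanking members from 0.0074 to 0.15 in Tau against WT mice and from -0.16 to 0.015 after UNC0642. The level of the 3 genes relative to the flanking members differed by 0.66 between Tau and WT mice (0.57 to 0.75 without each library) and by -0.07 between treated Tau and WT mice (-0.16 to 0.016). The choice of the 3 genes favoured the first of these differences. The cause of these shifts was not tested. With a replicate block the median of the 3 genes was 0.59 in Tau against WT and -0.71 in treated against untreated Tau mice, and no call of a member changed; the numbers share no mouse, and deviations of same-numbered libraries correlated at -0.034 to -0.003. No called member changed sign under any of these alternatives. The members called with all libraries were Alad, Hdhd3 and Bspry, and their choice by direction in these same libraries favoured this. The member counts without each library, the calls of neighbouring and partner genes without the library labelled WT replicate 1, and the comparison with Wdr31 and Pole3 alone, were chosen after seeing the data.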
